A study of Homo sapiens with 9 samples.

Results

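The HOX genes encode homeodomain transcription factors and lie in 4 clusters, HOXA to HOXD, on chromosomes 7, 17, 12 and 2. Their order along a cluster follows the order in which they are used along the head to tail axis of the embryo, so low numbers mark anterior and high numbers posterior members. Polycomb complexes hold HOX genes silent in cells that do not use them, MLL complexes keep used members active, and HOX proteins bind DNA together with cofactors of the TALE class such as the PBX and MEIS proteins. In the adult gut HOX genes mark position, and several of them are expressed in colorectal epithelium and in tumors derived from it.

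Members were selected by name, as every gene on the array called HOX followed by a cluster letter and a position number. This gave 39 genes with 52 probes among 31033 gene names and 50238 probes. DLD1, an established line from a human colorectal tumor, gave 9 RNA samples from separate cultures, each hybridized to 1 single-color Agilent array. In bulk RNA, fewer cells using a gene and less RNA per cell cannot be told apart. The groups were 3 Control cultures without siRNA, 3 Lamin A/C Kd cultures and 3 Lamin B2 Kd cultures, where Kd is a knockdown with 100 nM siRNA against that lamin for 48 h. No array came from cells given a control siRNA, so transfection and loss of a lamin cannot be told apart. HOXB8 was singled out because it was known to be higher in both knockdowns, so its values are a description and carry no test.

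A value below is the log2 signal of a probe minus the median of its array, so 0 is the median and a step of 1 is a factor of 2. A gene is represented by its brightest probe, and levels of different genes are not compared because each rests on its own probe. The lamins checked the labels, since LMNA differed by -3.83 ± 0.22 (SE) from control in the Lamin A/C Kd cultures (limma adjusted p = 0.000225) and LMNB2 by -2.32 ± 0.14 in those of Lamin B2 Kd (adjusted p = 0.000523). The share of spots well above background was 65.6 to 74.1% per array. Of the arrays, 8 share a slide and replicate 3 of Lamin B2 Kd is on another slide, and of the 30489 probes well above background everywhere, 47.9% had their lowest value on that array. Of the 23 HOX genes with a value on every array and detected on all of them, 8 had their lowest value there. The Lamin B2 Kd difference without it, a choice added for some genes after the data were seen, is given for the brightest probes of HOX genes and regulators where it moved by over 1.5 times or changed a call. Of 12 epithelial markers, 10 were detected on all 9 arrays, among them TACSTD1 (EPCAM), CDH1, KRT8, KRT18 and KRT19. So were 1 of 7 fibroblast markers, 4 of 5 blood markers and 2 of 3 endothelial markers. The fibroblast gene LUM was on 0 arrays and the leukocyte gene PTPRC on 2. Detection of these markers alone therefore does not set the cell types apart.

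Because the HOXB results rest on single 60-base probes, the first 30 bases of the probes they turn on are printed here, in lower case, as the files list them.
HOXB8: gctgtgggcaattgttacaagtgttcttag
HOXB7: taaaacgtccctgcctacaaatcatccggc
HOXB9: ttctttgggggtgattgtctcgcttgtttt
HOXB13, brighter probe: tcccacactctgctatcagaaacttaaact
HOXB13, second probe: catgtgacagcccactccaccagggttccc
The whole HOXB8 probe shares no run of 15 bases with a probe of another gene on the array, and the same holds for the HOXB7, HOXB9 and second HOXB13 probes. The brighter HOXB13 probe shares a run of 15 bases with 1 probe of HTF9C.

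DLD1 cells carried signal from all of HOXA and nearly all of HOXB, but from few members of HOXC. Of the 39 genes, 25 were well above background on all 3 controls, and 24 on all 9 arrays. By cluster, all 9 arrays detected 11 of 11 HOXA genes, 9 of 10 HOXB genes, 1 of 9 HOXC genes and 3 of 9 HOXD genes. HOXB1, an anterior gene used in the hindbrain, was detected on 0 arrays, as were HOXC4, HOXC5, HOXC11, HOXC12, HOXD4 and HOXD12. HOXC9 was the single HOXC gene found everywhere. HOXC10 was detected on 2 controls, 0 Lamin A/C Kd arrays and 2 Lamin B2 Kd arrays, while HOXC6, HOXC8 and HOXC13 were detected on 1 array, which in each case was replicate 3 of Lamin B2 Kd. HOXD1, HOXD8 and HOXD11 were each detected on 7 arrays and HOXD3 on 4.

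**Figure D1:**
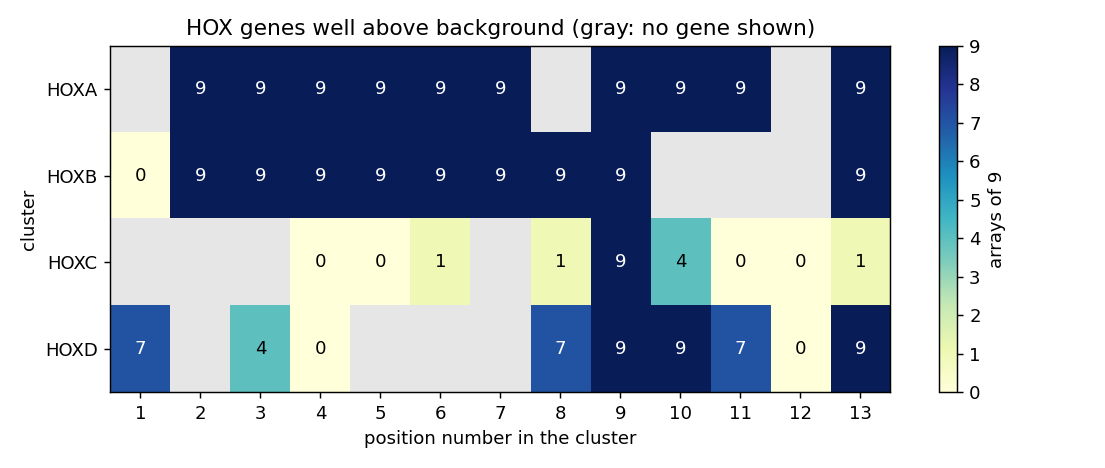
Number of the 9 arrays on which each HOX gene was well above background, by cluster (rows) and position number (columns), with gray where no gene is shown. The HOXA row reads 9 for every gene shown, the HOXB row reads 9 except for HOXB1 at 0, and 4 of the 9 HOXC genes are at 0.

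In the controls, the anterior HOXA genes had log2 signals of 1.64 ± 0.35 (SD, n = 3) for HOXA2 and 9.72 ± 0.08 for HOXA3. The middle of the cluster had 2.96 ± 0.10 for HOXA4, 4.36 ± 0.05 for HOXA5, -0.50 ± 0.06 for HOXA6 and 5.58 ± 0.08 for HOXA7. The posterior genes had 6.32 ± 0.14 for HOXA9, 4.37 ± 0.08 for HOXA10, 1.49 ± 0.15 for HOXA11 and 6.24 ± 0.08 for HOXA13, which patterns the hindgut and the limbs. The replicate SD of these HOXA genes was thus at most 0.35. In HOXB the control levels were 3.15 ± 0.11 for HOXB2, 7.77 ± 0.11 for HOXB3, 4.35 ± 0.12 for HOXB4, 4.84 ± 0.17 for HOXB5 and 7.89 ± 0.07 for HOXB6. HOXC9 stood at 1.47 ± 0.14. The HOXD genes detected on all 3 controls were HOXD9 at 1.13 ± 0.05, HOXD10 at 0.13 ± 0.25, HOXD11 at -1.07 ± 0.97 and HOXD13 at -0.30 ± 0.32. HOXD11 varied most among these, with control replicate 3 at 0.04 and the others at -1.47 and -1.77.

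HOXB8 was higher in every knockdown culture than in every control, and the neighboring genes of its cluster did not share the rise. HOXB8 is a middle-group gene known for holding blood progenitor cells in an immature state when overexpressed. Its probe, the 1 HOXB8 probe on the array, was well above background on 9 of 9 arrays. In the controls it read 1.77, 0.73 and 0.83 for replicates 1 to 3, or intensities of 280.6, 117.6 and 128.3. In Lamin A/C Kd it read 3.71, 4.01 and 4.71, or intensities of 926.5, 1017 and 1730.

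In Lamin B2 Kd HOXB8 read 3.04, 2.45 and 4.42, or intensities of 535.7, 414.2 and 1750. The lowest knockdown value, 2.45, lay above the highest control value, 1.77, so no knockdown group overlapped the controls, whereas the ranges of the knockdowns overlapped each other. The differences of means were 3.04 for Lamin A/C Kd, a factor of 8.20, and 2.20 for Lamin B2 Kd, a factor of 4.58. The highest Lamin B2 Kd value came from replicate 3, the array on the other slide, and without it the Lamin B2 Kd difference was 1.64. As a position among all probes, HOXB8 moved from the 56.8 to 65.2 percentile of an array in the controls to the 79.8 to 85.3 percentile in Lamin A/C Kd and the 70.8 to 85.6 percentile in Lamin B2 Kd. Both knockdowns were compared with the same 3 controls.

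**Figure D2:**
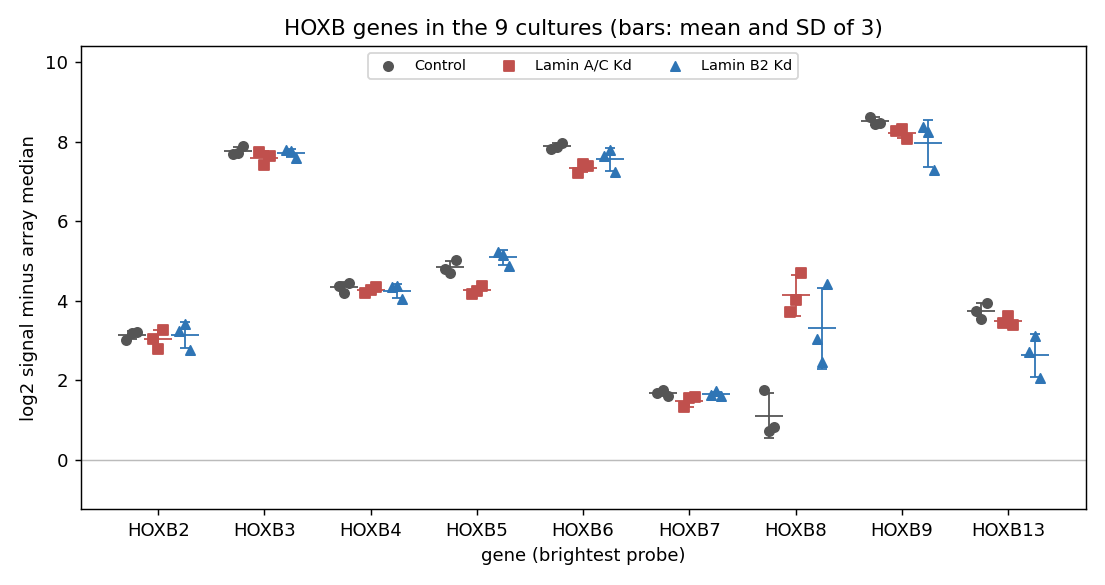
Log2 signal minus the array median (vertical axis) of the HOXB genes detected on all arrays, with 1 point per culture for Control (circles), Lamin A/C Kd (squares) and Lamin B2 Kd (triangles) and bars for mean and SD of 3. The knockdown points of HOXB8, from 2.45 to 4.71, lie above its controls, from 0.73 to 1.77, while HOXB7 and HOXB9 on either side of it do not rise.

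HOXB7 lies next to HOXB8 and has been studied as a growth-promoting homeobox gene in tumors. It read 1.67, 1.76 and 1.61 in the controls, 1.32, 1.55 and 1.57 in Lamin A/C Kd, and 1.64, 1.72 and 1.60 in Lamin B2 Kd. All Lamin A/C Kd values lay below the controls, by 0.20 on average (difference -0.20 ± 0.11 SE, adjusted p = 0.327), and the Lamin B2 Kd values overlapped them (-0.03 ± 0.11, adjusted p = 0.887, with a difference of 0.00 without replicate 3). The second HOXB7 probe differed by -0.35 ± 0.20 (adjusted p = 0.332) and -0.13 ± 0.20 (adjusted p = 0.701). HOXB9, the posterior neighbor, read 8.63, 8.45 and 8.47 in the controls, 8.26, 8.31 and 8.08 in Lamin A/C Kd, and 8.37, 8.24 and 7.29 in Lamin B2 Kd. Every knockdown value of HOXB9 lay below every control, yet neither the Lamin A/C Kd difference of -0.30 ± 0.25 (adjusted p = 0.535) nor the Lamin B2 Kd difference of -0.55 ± 0.25 (adjusted p = 0.221) passed the test. Without replicate 3 of Lamin B2 Kd the second difference was -0.21.

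A gene was called when it differed by at least 2-fold at an unadjusted limma p below 0.05, following the study's cutoffs of fold and p, for which neither the test nor an adjustment is stated. In Lamin A/C Kd the 1 HOX gene called of 27 tested was HOXB8, against 2.21% of all 21846 genes tested. In Lamin B2 Kd 2 of 25 were called, HOXB8 and HOXB13, against 2.03% of 22103 genes. Nothing is read from these counts as far as HOXB8 is concerned, since it was chosen for its rise. The remaining 23 HOX genes detected on all 9 arrays had a median difference of -0.13 after Lamin A/C Kd and -0.04 after Lamin B2 Kd, beside -0.04 and -0.15 over all 20272 genes so detected. Of these 23, 16 were lower in Lamin A/C Kd, or 69.6%, beside 55.6% of all genes, and 15 in Lamin B2 Kd, or 65.2%, beside 68.7%. The other 8 HOXB genes ranged from -0.58 to -0.07 in Lamin A/C Kd and from -1.11 to 0.26 in Lamin B2 Kd. A shift by the 75th percentile in place of the median moved the median of all genes tested from -0.04 to 0.04 in Lamin A/C Kd and from -0.14 to 0.06 in Lamin B2 Kd, so differences near 0 have no settled direction.

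**Figure D3:**
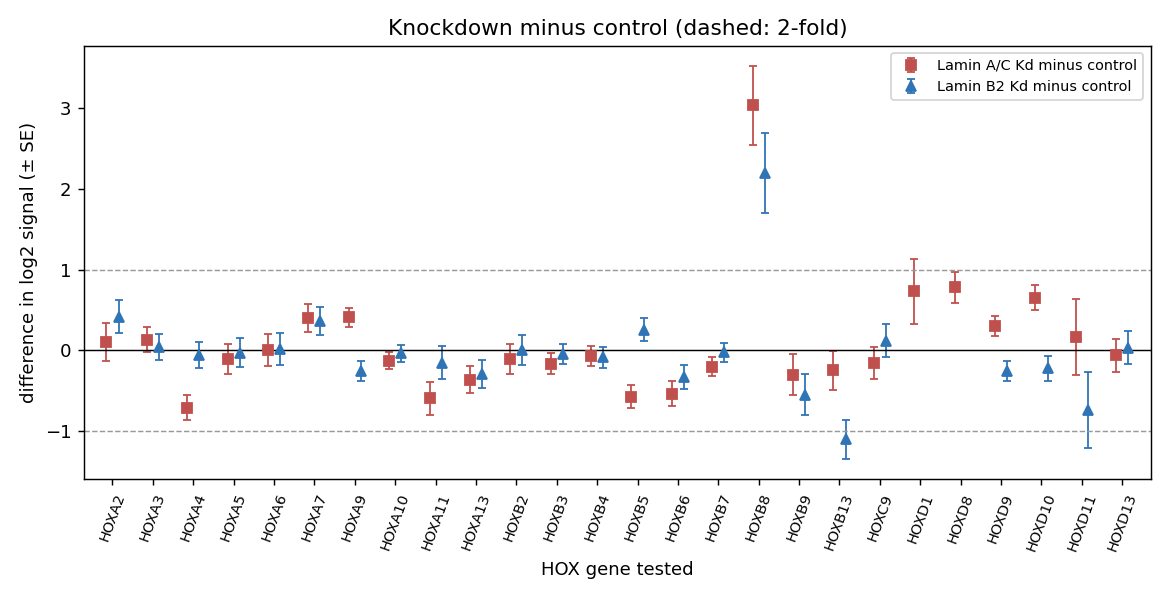
Difference in log2 signal between knockdown and control (vertical axis, ± SE) for 26 HOX genes tested in Lamin A/C Kd, with Lamin A/C Kd as squares, Lamin B2 Kd as triangles and dashed lines at 2-fold. HOXB8, at 3.04 and 2.20, stands above the upper line, and HOXB13 in Lamin B2 Kd, at -1.11, lies below the lower one.

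HOXB13 was lower in Lamin B2 Kd and was the only HOX gene tested besides HOXB8 past the 2-fold line, which it lost under several ways of processing. It is the most posterior gene of its cluster and is known in prostate and distal colon. The brighter probe read 3.74, 3.53 and 3.94 in the controls, 3.45, 3.61 and 3.40 in Lamin A/C Kd, and 2.72, 3.13 and 2.05 in Lamin B2 Kd. All 3 Lamin B2 Kd values lay below all controls and all Lamin A/C Kd values, and the difference from control was -1.11 ± 0.25 (adjusted p = 0.0436), a factor of 2.15. In Lamin A/C Kd the values overlapped the controls, with -0.25 ± 0.24 (adjusted p = 0.611). The lowest value came from replicate 3, and without it the difference was -0.81 (adjusted p = 0.0378), under the 2-fold line. Leaving out 1 of the arrays compared at a time, the adjusted p was 0.0172 to 0.181. The difference was also under 2-fold with the 75th percentile shift (-0.91), quantile normalization (-0.92), the authors' table (-0.68), array weights (-0.81) and the slide as a block (-0.81).

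The second HOXB13 probe read 3.11, 2.99 and 3.01 in the controls, 3.05, 3.23 and 2.99 in Lamin A/C Kd, and 2.66, 2.73 and 2.99 in Lamin B2 Kd. Its Lamin B2 Kd difference was -0.25 ± 0.13 (adjusted p = 0.272), with replicate 3 level with the lowest control, so the probes of HOXB13 differ in size and in the array that is lowest. With the probes averaged the difference was -0.68. The HTF9C probes, 1 of which shares 15 bases with the brighter HOXB13 probe, differed by -0.16 ± 0.19 (adjusted p = 0.611) and -0.53 ± 0.25 (adjusted p = 0.233) in Lamin B2 Kd. Their part in the HOXB13 result was not tested.

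By an adjusted p under 0.05 in place of the 2-fold line, 8.94% of all genes passed in Lamin A/C Kd, 5.79% on the lower and 3.15% on the higher side. Of the HOX genes detected on all 9 arrays, HOXA4 and HOXB5 passed on the lower side and HOXD10 on the higher side. HOXB8 is left out here because it was chosen for its rise, and HOXD8 because it entered the test only through the group in which it is high. These genes, and those named by this criterion between the knockdowns, were picked out after their values were seen. HOXA4 read 2.84, 3.01 and 3.03 in the controls, 2.26, 2.07 and 2.41 in Lamin A/C Kd, and 3.06, 3.05 and 2.60 in Lamin B2 Kd. The Lamin A/C Kd values were all below the rest, with a difference from control of -0.71 ± 0.16 (adjusted p = 0.0247). HOXB5, a gene used in gut innervation and lung branching, read 4.80, 4.69 and 5.03 in the controls, 4.17, 4.25 and 4.36 in Lamin A/C Kd, and 5.24, 5.16 and 4.89 in Lamin B2 Kd. All its Lamin A/C Kd values lay below the rest, with a difference from control of -0.58 ± 0.14 (adjusted p = 0.0352), while the Lamin B2 Kd difference was 0.26 ± 0.14 (adjusted p = 0.293).

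HOXD10, a posterior gene of limb and spinal cord, read 0.10, 0.39 and -0.09 in the controls, 0.74, 0.71 and 0.89 in Lamin A/C Kd, and 0.00, -0.30 and 0.03 in Lamin B2 Kd. The Lamin A/C Kd values lay above the rest, with a difference from control of 0.65 ± 0.15 (adjusted p = 0.0331). HOXD8 read -1.90, -2.15 and -1.70 in the controls, -0.98, -1.19 and -1.24 in Lamin A/C Kd, and -2.05, -1.49 and -1.45 in Lamin B2 Kd. It was detected on all 3 arrays of Lamin A/C Kd and on 2 of 3 in each of the other groups, so its Lamin A/C Kd difference of 0.78 ± 0.19 is given as a description. HOXD9 differed by 0.30 ± 0.13 (adjusted p = 0.178). HOXD1, likewise tested only through its Lamin A/C Kd arrays, had a difference of 0.73 ± 0.40, also a description. After Lamin A/C Kd the HOXA3 probes went opposite ways, at 0.13 ± 0.16 (adjusted p = 0.695) for the brighter and -0.44 ± 0.15 (adjusted p = 0.107) for the second, and neither passed the test. When 1 control or Lamin A/C Kd array was left out, the adjusted p was 0.0438 to 0.104 for HOXA4, 0.0661 to 0.144 for HOXB5 and 0.0399 to 0.134 for HOXD10. In Lamin B2 Kd, where 4.38% of all genes had an adjusted p under 0.05, HOXB13 was the HOX gene that passed, with HOXB8 left out for the same reason.

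The reference holds promoter sequences for HOXA4, HOXD8 and HOXD10 and not for HOXB5. The 250 bases before the start are printed from RefSeq on GRCh38.p14 as sequence context. A link between these sequences and the differences was not tested. The arrays are annotated on hg18, and these positions are those of the reference. Capitals mark CG dinucleotides.
HOXA4, chr7:27130758-27131007, - strand: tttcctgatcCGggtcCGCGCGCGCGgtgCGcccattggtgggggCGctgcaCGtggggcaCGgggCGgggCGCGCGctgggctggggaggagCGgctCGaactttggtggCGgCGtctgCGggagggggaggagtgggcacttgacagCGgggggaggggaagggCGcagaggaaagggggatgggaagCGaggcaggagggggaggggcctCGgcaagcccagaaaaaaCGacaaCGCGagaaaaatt
HOXD8, chr2:176129455-176129704, + strand: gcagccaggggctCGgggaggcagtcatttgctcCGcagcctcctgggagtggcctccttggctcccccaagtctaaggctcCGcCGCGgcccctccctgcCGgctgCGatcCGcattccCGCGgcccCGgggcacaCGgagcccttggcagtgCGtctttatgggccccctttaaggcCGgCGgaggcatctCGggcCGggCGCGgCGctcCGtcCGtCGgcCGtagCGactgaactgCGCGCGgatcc
HOXD10, chr2:176116528-176116777, + strand: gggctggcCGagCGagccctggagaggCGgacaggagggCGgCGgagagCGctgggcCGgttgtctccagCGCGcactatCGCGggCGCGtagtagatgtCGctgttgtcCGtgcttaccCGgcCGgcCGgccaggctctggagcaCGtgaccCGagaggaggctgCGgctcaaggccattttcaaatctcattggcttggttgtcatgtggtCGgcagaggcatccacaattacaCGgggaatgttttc
They hold 26, 28 and 23 CG dinucleotides in the order printed, beside a median of 11 over all 35116 promoter windows of that length and 19 over the 27 HOX windows. The motif TGATNNAT, a joint site of PBX and HOX proteins, was searched on both strands and was in none of these 3 windows, in 3 of the 27 HOX windows and in 6.47% of all windows.

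The knockdowns were also compared with each other, which tests whether a HOX gene differed between the siRNA treatments. Each lamin was targeted with a single siRNA sequence, so loss of the lamin and other effects of its siRNA cannot be told apart. No HOX gene of 27 tested was called at 2-fold with limma, against 4.19% of all 21829 genes, and 8 had an unadjusted p under 0.05, against 29.4%. The 8 include HOXD8, which was tested only through the Lamin A/C Kd arrays, where it is high. HOXD1 and HOXD11 entered the 27 in the same way, so nothing is read from these genes in the counts. With an adjusted p under 0.05 there were 6, against 15.7%. Higher in Lamin A/C Kd than in Lamin B2 Kd were HOXA9, HOXD9, HOXD10 and HOXB13, a side on which 11.2% of all genes lay, and lower were HOXA4 and HOXB5, against 4.53%. These counts rest on the brightest probes. The second HOXA3 probe was also lower, at -0.62 ± 0.15 (adjusted p = 0.0245), while the brighter one was at 0.09 ± 0.16 (adjusted p = 0.731).

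HOXB5 had the larger difference of these on the lower side, -0.83 ± 0.14 (adjusted p = 0.0053), and the knockdowns did not overlap. HOXA4 differed by -0.65 ± 0.16 (adjusted p = 0.0229). HOXA9, a posterior gene known from leukemia, read 6.25, 6.23 and 6.49 in the controls, 6.74, 6.64 and 6.81 in Lamin A/C Kd, and 6.16, 6.07 and 5.97 in Lamin B2 Kd. It was highest in Lamin A/C Kd and lowest in Lamin B2 Kd without overlap, with a difference of 0.66 ± 0.12 (adjusted p = 0.00709) between the knockdowns. HOXD9 read 1.12, 1.19 and 1.09 in the controls, 1.28, 1.57 and 1.46 in Lamin A/C Kd, and 0.77, 1.05 and 0.82 in Lamin B2 Kd, in the same order of groups, with a difference of 0.56 ± 0.13 (adjusted p = 0.0177). HOXD10 differed by 0.87 ± 0.15 (adjusted p = 0.00659) and HOXB13 by 0.86 ± 0.24 (adjusted p = 0.0447), or 0.56 without Lamin B2 Kd replicate 3 (adjusted p = 0.0470). When 1 array of the knockdowns was left out, HOXA9, HOXB5 and HOXD10 kept an adjusted p under 0.05 in 6 of 6 cases, with at most 0.0316, HOXD9 in 3, and HOXA4 and HOXB13 in 2 each, with adjusted p up to 0.0758, 0.0915 and 0.136. HOXB8 differed by 0.84 between the knockdowns, under 2-fold, and passed the 2-fold line without replicate 3 of Lamin B2 Kd.

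Regulators of HOX genes were counted from lists of TALE cofactors, Polycomb complexes, MLL complexes, histone demethylases, insulator proteins, CDX and ParaHox genes, the retinoid pathway and genes flanking the clusters. Of 93 such genes on the array, 82 were tested in Lamin A/C Kd, where 3 were called, all lower, beside 2.21% of all genes, and 84 in Lamin B2 Kd, where 1 was called, higher, beside 2.03%. By an adjusted p under 0.05, 9 were lower and 1 higher in Lamin A/C Kd, beside 5.79 and 3.15% of all genes, and 2 were lower in Lamin B2 Kd, where 4.38% passed in either direction. The median difference of the lists was -0.14 for Lamin A/C Kd and -0.19 for Lamin B2 Kd, beside -0.04 and -0.14 over all genes tested. The 3 lower genes in Lamin A/C Kd were PBX3, PSIP1 and SMC1A.

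PBX3, a DNA-binding partner of HOX proteins, read 0.94, 1.38 and 1.17 in the controls, 0.10, 0.05 and 0.27 in Lamin A/C Kd, and 0.87, 1.28 and 0.89 in Lamin B2 Kd. It changed by -1.02 ± 0.16 (adjusted p = 0.00721) after Lamin A/C Kd, all values below the controls, and the Lamin B2 Kd difference was -0.15 ± 0.16 (adjusted p = 0.567), or -0.09 without replicate 3. Without 1 of the arrays compared its Lamin A/C Kd difference was -1.13 to -0.91, past 2-fold in 4 of 6 cases. MEIS1, MEIS3 and PKNOX2 were detected on 1, 3 and 0 arrays.

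**Figure D4:**
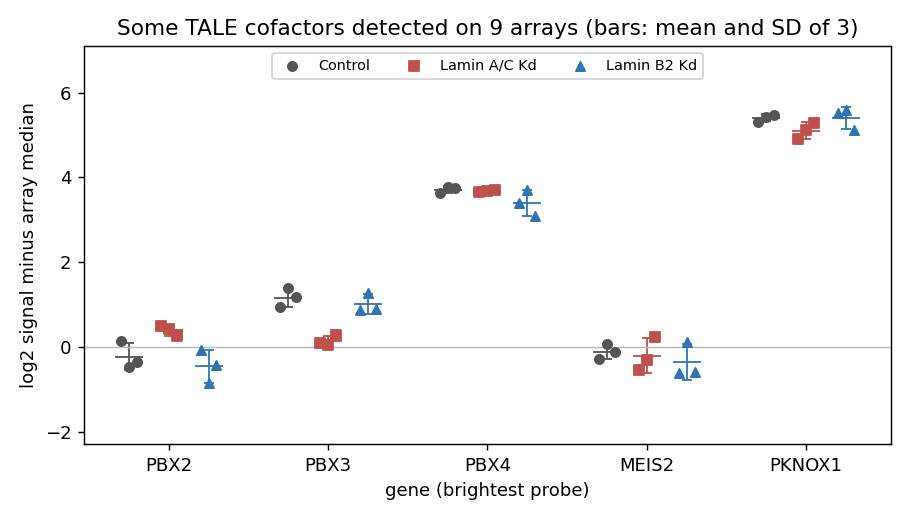
Log2 signal minus the array median (vertical axis) of 5 TALE cofactors detected on 9 arrays, with 1 point per culture and bars for mean and SD of 3. The Lamin A/C Kd points of PBX3, from 0.05 to 0.27, lie below its controls, from 0.94 to 1.38.

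PSIP1, which tethers MLL complexes to chromatin, averaged 8.07 ± 0.07 in the controls and 7.04 ± 0.08 after Lamin A/C Kd (SD, n = 3), and its Lamin A/C Kd difference was -1.02 ± 0.11 (adjusted p = 0.0016), past 2-fold in 4 of 6 cases with 1 array left out. SMC1A, a cohesin subunit that works with CTCF at chromatin loops, read 5.61, 5.63 and 5.59 in the controls, 4.05, 4.40 and 4.36 in Lamin A/C Kd, and 5.43, 5.45 and 4.96 in Lamin B2 Kd, and its Lamin A/C Kd difference was -1.34 ± 0.16 (adjusted p = 0.0025), past 2-fold in 6 of 6. After Lamin B2 Kd these genes differed from control by -0.27 ± 0.11 (adjusted p = 0.183) and -0.34 ± 0.16 (adjusted p = 0.24), the latter -0.18 without replicate 3.

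All 11 PRC2 genes and all 17 PRC1 genes on the array were detected on every array, and none of them was called in either knockdown. By adjusted p, AEBP2, a PRC2 accessory subunit, at -0.55 ± 0.10 (adjusted p = 0.013), and PCGF5, a PRC1 subunit, at -0.65 ± 0.12 (adjusted p = 0.0135), passed in Lamin A/C Kd, both lower, and none passed in Lamin B2 Kd. EZH2, the PRC2 enzyme that methylates histone H3, read 7.81, 7.72 and 7.88 in the controls, 7.41, 7.38 and 7.62 in Lamin A/C Kd, and 7.55, 7.65 and 7.23 in Lamin B2 Kd. Its knockdown values all lay below the controls, with differences of -0.33 ± 0.14 (adjusted p = 0.181) and -0.32 ± 0.14 (adjusted p = 0.202), the latter -0.20 without replicate 3. CTCF, which binds at insulators, differed by -0.22 ± 0.11 (adjusted p = 0.293) and -0.16 ± 0.11 (adjusted p = 0.393), the latter -0.10 without it. CDX2, an intestinal regulator that acts upstream of HOX genes, overlapped between groups, with 0.13 ± 0.17 (adjusted p = 0.724) and -0.18 ± 0.17 (adjusted p = 0.519), the latter 0.00 without replicate 3. CDX1 was detected on 7 arrays, and its Lamin B2 Kd difference was 0.61 ± 0.63, a description, as it was tested through those arrays.

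DHRS3, which turns retinal back to retinol, was called in Lamin B2 Kd. It read 1.79, 0.47 and 1.85 in the controls, 1.80, 1.85 and 1.38 in Lamin A/C Kd, and 2.88, 2.95 and 2.53 in Lamin B2 Kd. The difference was 1.42 ± 0.34 (adjusted p = 0.0524), and without control replicate 2, the low one, it was 0.97. SKAP1, which flanks the HOXB cluster, differed by -0.86 ± 0.12 (adjusted p = 0.0129) from control after Lamin B2 Kd and by -0.07 ± 0.12 (adjusted p = 0.807) after Lamin A/C Kd. In Lamin A/C Kd the flanking genes that passed by adjusted p were HIBADH, beside HOXA, at -0.89 ± 0.14 (adjusted p = 0.00644), and KIAA1715, beside HOXD, at -0.86 ± 0.12 (adjusted p = 0.00538). PRAC, a neighbor of HOXB13, had differences of -0.18 ± 0.26 (adjusted p = 0.751) for Lamin A/C Kd and -0.17 ± 0.26 (adjusted p = 0.686) for Lamin B2 Kd.

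Among markers of other cell types, 3 of 7 fibroblast genes were tested in Lamin A/C Kd. PDGFRB, a fibroblast receptor, was among them only through the Lamin A/C Kd arrays, where it is high, and its difference of 1.52 ± 0.27 is a description. Of the 12 epithelial genes, VIL1 was called in Lamin B2 Kd, at -1.06 ± 0.21 (adjusted p = 0.034), or -0.87 without replicate 3. The log2 of the summed intensity of the epithelial genes was 19.1 to 19.3 in the controls, 19.0 to 19.2 after Lamin A/C Kd and 19.2 to 19.3 after Lamin B2 Kd, and that of the fibroblast genes was 6.89 to 7.32, 7.23 to 7.58 and 6.78 to 7.54. Their part in the HOX differences was not tested.

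**Figure D5:**
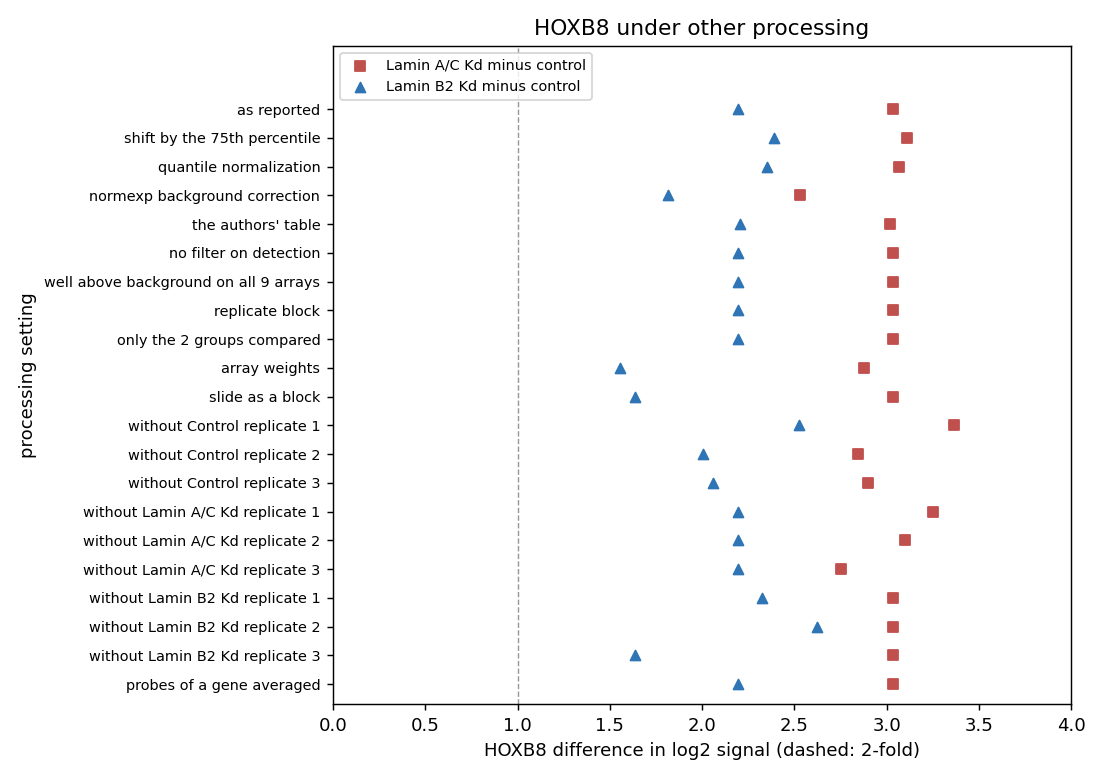
Difference in HOXB8 log2 signal between knockdown and control (horizontal axis) under each way of processing (vertical axis), for Lamin A/C Kd (squares) and Lamin B2 Kd (triangles), with a dashed line at 2-fold. All points lie to the right of the line, from 2.53 to 3.36 for Lamin A/C Kd and from 1.55 to 2.62 for Lamin B2 Kd.

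The description of HOXB8 held under every way of processing tried. The difference ranged from 2.53 with normexp background correction to 3.36 without control replicate 1 in Lamin A/C Kd, and from 1.55 with array weights to 2.62 without Lamin B2 Kd replicate 2 in Lamin B2 Kd.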

How the data were processed

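Total RNA of 9 DLD1 cultures was hybridized to single-color Agilent arrays. Per array, the authors deposited scanner output from Feature Extraction, in which the processed intensity had been background-subtracted and detrended (version 10.7.3.1 per the file headers, 10.5 per the submitters' processing notes). A series table deposited by the authors holds log2 values after a 50th percentile shift and centering of each row on its median, and served as an alternative. In it 20266 of 50238 rows hold no values, and its set numbers for Lamin B2 Kd differ from those of the titles, so these columns were used by group.

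Each spot's log2 intensity was set relative to the 50th percentile of the array, outlier spots were left out, and spots of one probe were averaged. As a result HOXA2 has no value in Lamin A/C Kd replicate 2. No spot was saturated. A probe was detected where at least 0.5 of its spots were marked well above background, and tested where it was detected on all 3 arrays of a group compared. Limma 3.58.1 (R 4.3.3) was fitted over all 9 arrays, with p-values adjusted by Benjamini-Hochberg over all probes tested. The number of arrays limits the precision. With 1 array per culture, p-values measure the spread between cultures and between arrays together. That spread is estimated over all 3 groups, the array on the other slide included. Samples were not paired by the set numbers of the titles, since 1 of 9 same-numbered pairs of arrays had deviations correlated over 0.1. Because the authors' table numbers the Lamin B2 Kd sets otherwise, this does not show that the cultures were unpaired.

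The members and lists were chosen with earlier results of these data known. Named with every value were HOXB8, HOXB7, HOXB9 and any HOX gene called, and control levels are given for HOX genes detected on all controls. Called regulators were named together with EZH2, CDX2, CDX1 and CTCF, and further genes were named after their values were seen. A Y-linked demethylase of the lists was not used, and results that rest on withheld items are not reported here. Alternatives were a 75th percentile shift, quantile normalization, normexp with an offset of 50, the authors' table, other detection filters and call criteria, the replicate number or slide as a block, only the groups compared, array weights, averaged probes and each array left out, with the means of further genes without Lamin B2 Kd replicate 3 added after seeing the data. The steps were tested on simulated data.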

Additional observations from a re-analysis of the deposited data

How the results depend on the processing

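For Lamin A/C Kd the number of HOX genes called stayed at 1 under all alternatives, leaving out any array included (1 to 1), except at 1.5-fold, where it was 5. As reported above, that gene is HOXB8, which was chosen for its rise. Nothing is read from this count or the HOX counts below as far as HOXB8 is concerned. In Lamin B2 Kd the count of 2 became 1 with the 75th percentile shift, quantile normalization, the authors' table, array weights, the slide as a block and averaged probes, HOXB13 being lost in each, and 4 with no filter on detection, which added HOXC8 and HOXC13. Leaving out 1 array gave 1 to 3, with 1 without Lamin B2 Kd replicate 3 and 3, HOXD11 being added, without replicate 2. HOXD11 was tested there only through the controls, since it was detected on 1 Lamin B2 Kd array. Without replicate 2 its Lamin B2 Kd values were -1.91 and -2.48. In this count and in the one between the knockdowns, nothing is therefore read from HOXD11. Between the knockdowns the count of 0 became 1 with no filter on detection (HOXC13), 1 with array weights, 1 with the slide as a block and 1 without Lamin B2 Kd replicate 3 (HOXB8 in each), 2 without Lamin B2 Kd replicate 2 (HOXB13 and HOXD11) and 5 at 1.5-fold, so that leaving out 1 array gave 0 to 2. The regulators called numbered 4, and 2 with the 75th percentile shift, 2 with quantile normalization, 16 at 1.5-fold and 3 to 7 with 1 array left out, the 7 without Lamin B2 Kd replicate 2. The HOXB8 difference was 2.75 to 3.36 in Lamin A/C Kd and 1.64 to 2.62 in Lamin B2 Kd with 1 array left out. HOX genes detected on the controls numbered 25 to 27 when 1 control was left out. No named gene changed direction where it was called. With the replicate block the HOX counts were 1, 2 and 0 and the regulator count 4, and the HOXB8 differences were 3.04 and 2.20. Over all genes, those with an adjusted p under 0.05 went from 1953 to 1014 in Lamin A/C Kd with this block. They went from 968 to 184 in Lamin B2 Kd and from 3432 to 2368 between the knockdowns. HOXA4, HOXB5 and HOXD10 no longer passed in Lamin A/C Kd, nor HOXB13 in Lamin B2 Kd. Between the knockdowns HOXA9, HOXB5, HOXD9 and HOXD10 still passed, while HOXA4 and HOXB13 did not. HOXB8, HOXD1 and HOXD8 are left out of this criterion, as above. The 75th percentile shift raised the numbers passing over all genes to 3316, 1077 and 4869. It added HOXA7, HOXA9 and HOXB6 in Lamin A/C Kd, HOXA7 and HOXB5 in Lamin B2 Kd, and HOXA11 and HOXB6 between the knockdowns. Without Lamin B2 Kd replicate 3 the numbers were 4571, 1045 and 4224. This added HOXA7, HOXA9, HOXA11, HOXA13 and HOXB6 in Lamin A/C Kd, HOXA7 in Lamin B2 Kd, and HOXA5, HOXA11 and HOXC9 between the knockdowns. That array is in neither group of the Lamin A/C Kd comparison with control, whose median difference over all genes stayed at -0.04. It does enter the 1 estimate of spread per probe that the fit shares over all 9 arrays. Of all genes called, 40.2% were higher in Lamin B2 Kd and 78.1% with the 75th percentile shift, against 41.7 and 52.7% in Lamin A/C Kd and 66.7 and 48.2% between the knockdowns. The share of all genes called at 1.5-fold, or with no filter on detection, was not worked out. Nothing is therefore read from the HOX and regulator counts under those settings. The causes of these changes were not tested. Signal over background limits the HOXC genes, 8 of which were not detected on all arrays of any group.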

Other observations

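Homeobox genes outside the HOX clusters were looked at after the data were seen, as the 146 other gene names whose description on the array holds the word homeobox. Of these, 79 were detected on all 9 arrays and 24 on none. In Lamin A/C Kd 4 of 91 tested were called, beside 2.21% of all genes, and 1 of the 4, BARX2, was tested only through the arrays in which it is high. In Lamin B2 Kd limma called 0 of 92, beside 2.03%. PROX1, a regulator of intestinal tumor cells and lymphatic vessels, read -0.43, 0.38 and -0.10 in the controls, 1.22, 1.45 and 1.10 in Lamin A/C Kd, and 0.26, -0.13 and -0.59 in Lamin B2 Kd. It rose in Lamin A/C Kd by 1.31 ± 0.25 (adjusted p = 0.0151), with every value above every control. PBXIP1, which encodes a protein that binds PBX proteins, rose in Lamin A/C Kd by 1.61 ± 0.23 (adjusted p = 0.00548), while the Lamin B2 Kd difference was 0.15 ± 0.23 (adjusted p = 0.706), or 0.41 without replicate 3. BARX2 had a Lamin A/C Kd difference of 1.77 ± 0.72, given as a description, and PBX3 was the other gene called.

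HOMEZ, a homeobox gene with leucine zippers, read 2.32, 2.10 and 2.17 in the controls, 2.69, 2.73 and 2.76 in Lamin A/C Kd, and 1.54, 1.41 and 1.15 in Lamin B2 Kd. It was above all controls in Lamin A/C Kd and below all controls in Lamin B2 Kd, and the knockdowns differed by 1.36 ± 0.13 (adjusted p = 0.000486), the same order of groups as in HOXA9 and HOXD9. Between the knockdowns 4 of 93 other homeobox genes tested were called, all higher in Lamin A/C Kd, beside 4.19% of all genes. HOMEZ was picked from these after the values were seen, so no pattern over homeobox genes is read from its order.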
